A study of Rattus norvegicus with 34 samples.

Results

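The genes described here encode the respiratory chain and the ATP synthase of the mitochondrion. They were the probe sets with a single gene symbol beginning with Nduf (complex I), Uqcr (complex III), Cox4 to Cox8 (complex IV) or Atp5 (complex V), together with Sdha, Sdhb, Sdhc and Sdhd (complex II) and COX1. The rule found 97 probe sets for 87 genes, of 31042 probe sets on the array and 14217 genes named by a single symbol. In counts by complex, Ndufa4 was placed in complex IV, and Ndufa4l2, Cox7a2l and the pseudogene Cox6c-ps1 in none. The rule also asked for the cytochrome c genes Cycs and Cyct, but every probe set of these genes carried several symbols, so no value is given for either. In all, 12 probe sets of these families carried several symbols and were left out.

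The values come from testis RNA of male Wistar Han rats, with 1 Affymetrix rat array per animal. The 7 groups were Control (0 ppm, 6 arrays), the mid-dose groups M500 (myclobutanil 500 ppm, 3 arrays), P500 (propiconazole 500 ppm, 4 arrays) and T500 (triadimefon 500 ppm, 4 arrays), and the high-dose groups M2000 (myclobutanil 2000 ppm, 5 arrays), P2500 (propiconazole 2500 ppm, 5 arrays) and T1800 (triadimefon 1800 ppm, 4 arrays). The compounds are triazole fungicides and were fed from gestation day 6 to postnatal day 92, when the testes were taken. Of 34 labelled arrays, 3 held no values (Control 01, M500 03 and T1800 01) and were not analysed here. The sources used here give no litters, so p-values treat the animals as independent. All values are scores on a log-like scale whose base is unknown, so a difference is in score units and no fold is given.

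The respiratory chain passes electrons from NADH (complex I) and succinate (complex II) through complex III and cytochrome c to oxygen at complex IV, and the proton gradient it builds drives ATP synthesis at complex V. Nearly all subunits are encoded in the nucleus, while COX1, a catalytic subunit of complex IV, is encoded in mitochondrial DNA. Spermatocytes and spermatids replace some general subunits by forms made in germ cells, among them Cox6b2 and Cox7b2, whereas Cox6a2, Cox7a1 and Cox8b are forms of heart and skeletal muscle. Subunits are called core where they carry the catalytic or electron-transfer work of a complex, and accessory otherwise. Uqcrc1 and Uqcrc2 of complex III were counted as core too. The division was made from textbook knowledge after values had been seen.

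Most of these probe sets were among the brightest of the control testis. Their median lay at percentile 93.3 of all probe sets, and 62 of the 97 (63.9%) lay at or above the 90th percentile, where by construction 10% of all probe sets lie. The range ran from percentile 3.35 to 99.99, with 10 probe sets below the 50th. Complex III (median 96.4, 8 probe sets) and complex V (96.2, 20 probe sets) stood highest, followed by complex I (92.9, 44 probe sets), complex IV (89.0, 17 probe sets) and complex II (88.7, 5 probe sets). Brightness depends on the probes as well as on the transcript, so these ranks give no order of transcript levels.

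The brightest of each complex in Control were COX1 (mean 4.40) for complex IV and the Rieske iron-sulphur protein Uqcrfs1 (3.39) for complex III. In complex I the brightest was Ndufaf3 (3.22), which is an assembly factor and not a subunit. The catalytic beta subunit Atp5f1b (3.14) led complex V, and the flavoprotein Sdha (1.47) led complex II. The 7 probe sets of complex I assembly factors otherwise stood lower, with a median at percentile 81.3. The dimmest member of each complex, apart from the muscle form Cox8b in complex IV at percentile 18.1, was a second probe set of a gene whose other probe set was at least as bright. For Ndufa9 these were 1396282_at at percentile 3.35 and 1388323_at at percentile 94.7, and for Atp5me they were 1377191_at at percentile 14.2 and 1387019_at at percentile 86.3. Of the 9 genes with several probe sets, those for Uqcrc2, Atp5me, Sdhd and Atp5if1 had a pair of probe sets that correlated below 0 over the 31 arrays (lowest -0.358, for Uqcrc2).

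**Figure D1:**
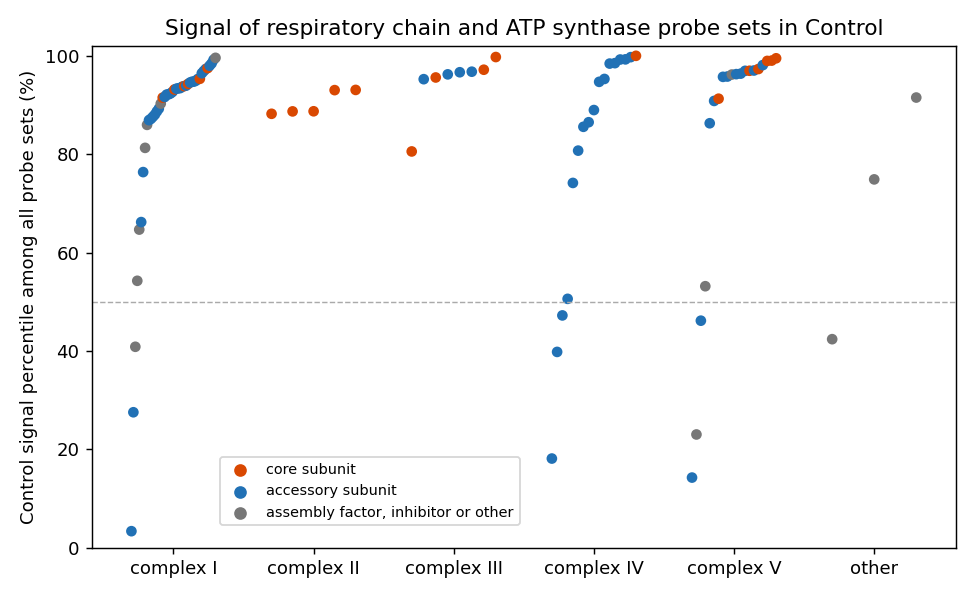
Percentile of each probe set's Control mean among all 31042 probe sets, in percent, by complex, with 1 point per probe set and colour for its role. Most points sit near the top of the scale, and the 10 below 50 are the muscle forms Cox6a2, Cox7a1 and Cox8b, the pseudogene Cox6c-ps1 and further probe sets of genes that also have a brighter one.

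Complex IV shows which tissue forms the testis arrays detected. Cox6b2, the germ cell form of subunit 6B, had a Control mean of 2.95 at percentile 99.2, and Cox7b2, the germ cell form of subunit 7B, a mean of 3.37 at percentile 99.7. The general forms Cox6b1 (0.944, percentile 86.5) and Cox7b (0.440, percentile 74.1) were dimmer on their own probes. Cox4i1, the general form of subunit 4, had a mean of 2.97 at percentile 99.3, while Cox4i2, the form known from lung, stood at percentile 50.6. The muscle forms Cox6a2 (percentile 47.2), Cox7a1 (percentile 39.8) and Cox8b (percentile 18.1) lay below the median of the array, and none of these, nor Cox4i2, exceeded the bioB hybridisation control on any of the 31 arrays. The general forms Cox6a1 and Cox8a had Control means of 1.68 and 1.11.

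The 120 bases before the annotated start of these germ cell and general forms are shown because these pairs are the clearest case here of a germ cell gene and its general counterpart. They are from RefSeq, rat build GRCr8, read 5′ to 3′ in the direction of transcription. Cox6b2 is at chr1:78122751-78122870 (plus strand), Cox6b1 at chr1:95009853-95009972 (minus strand), Cox7b2 at chr14:37046961-37047080 (plus strand) and Cox7b at chrX:75148916-75149035 (plus strand). The Cox6b1 stretch lies inside the annotated span of its gene (chr1:95002513-95011516), since the promoter table places the start there.
Cox6b2: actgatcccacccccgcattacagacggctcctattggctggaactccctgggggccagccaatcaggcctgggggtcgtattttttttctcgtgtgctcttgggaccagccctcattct
Cox6b1: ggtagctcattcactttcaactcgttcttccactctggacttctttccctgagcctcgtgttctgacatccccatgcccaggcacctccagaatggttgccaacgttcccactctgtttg
Cox7b2: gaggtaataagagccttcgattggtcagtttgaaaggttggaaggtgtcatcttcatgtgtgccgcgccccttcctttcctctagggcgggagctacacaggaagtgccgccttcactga
Cox7b: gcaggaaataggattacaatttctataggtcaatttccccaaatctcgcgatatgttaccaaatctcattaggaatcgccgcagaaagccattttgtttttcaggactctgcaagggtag
None of the motifs searched below (NRF1, ETS, CRE, the short CRE and the TATA box) was found in the 250 bases before these starts.

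The germ cell and general forms are read by different probes, so the gap between them on an array is no ratio of transcripts, and only its change between groups was compared. Cox6b2 in Control had a lowest score of 2.27, a median of 3.22 and a highest of 3.26, and Cox6b1 had 0.48, 1.08 and 1.20. The low values of both genes came from the same arrays, Control 02 and Control 06. Taken within each array, Cox6b2 minus Cox6b1 was 2.01 ± 0.168 (SD, n = 6) in Control and 1.91 to 2.02 as a mean in the exposed groups. Cox7b2 in Control had a lowest score of 2.94, a median of 3.55 and a highest of 3.61, and Cox7b had 0.15, 0.54 and 0.59. Cox7b2 minus Cox7b was 2.93 ± 0.132 (SD, n = 6) in Control and 2.84 to 2.99 as a mean in the exposed groups.

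In the 12 comparisons of these differences with Control, the exposed groups stood from -0.102 to 0.0585 score units from Control. The lowest p was 0.201 (exact permutation test, two-sided), for Cox7b2 minus Cox7b in P2500, and every adjusted p was 1. In P2500 this difference was 2.89, 2.78, 2.82, 2.79 and 2.93 in replicates 01 to 05, within the Control range of 2.71 to 3.06. The low end of that range came from Control 02 (2.71) and Control 06 (2.86). The other Control arrays had 2.935 to 3.055, above every P2500 array. Without replicates 02, 03 and 04 of P2500, which carried liver transcripts, the difference from Control was -0.0212 in place of -0.0875.

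**Figure D2:**
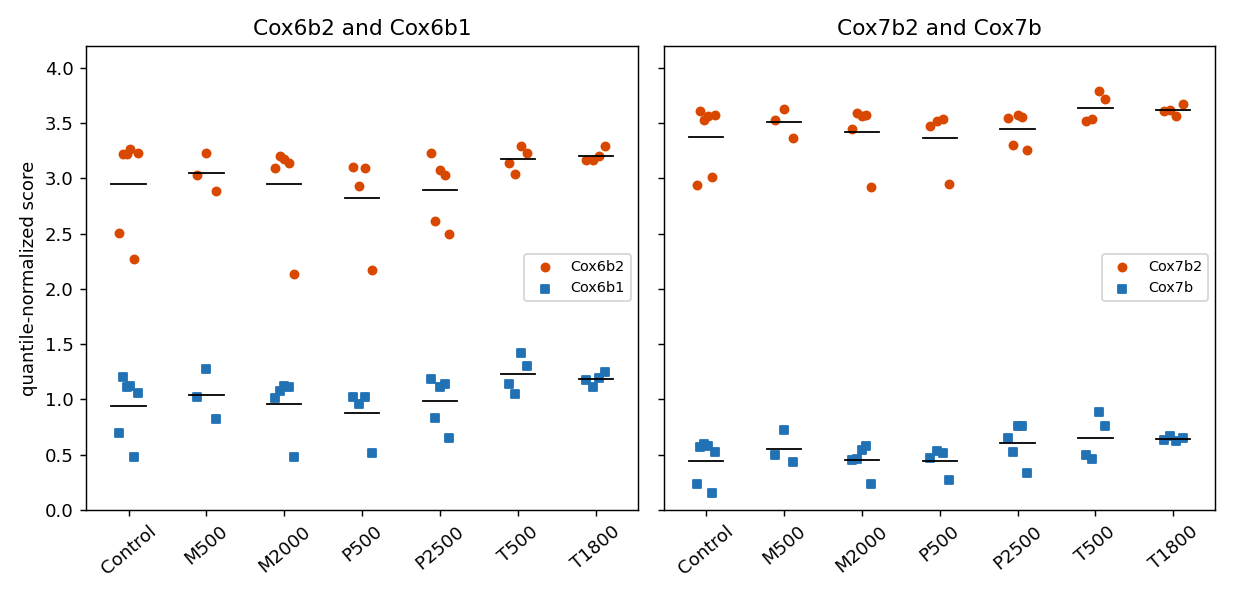
Quantile-normalized score of the germ cell forms Cox6b2 and Cox7b2 (circles) and the general forms Cox6b1 and Cox7b (squares), with 1 point per array, by group, and the group mean as a line. The germ cell form lies above the general form on every array, and both forms are low together on the same arrays of Control, M2000, P500 and P2500.

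Before any contrast, the arrays themselves differed in these genes. The mean over the 97 probe sets ran from 1.12 in Control 06 to 1.72 in T500 03. It was 1.12 and 1.32 in Control 06 and Control 02 but between 1.56 and 1.62 in the other 4 Control arrays. It was also 1.22 in M2000 05, 1.27 in P500 04, 1.34 in P2500 05 and 1.401 in P2500 02, while the lowest array of T500 and T1800 was at 1.53.

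These values moved with the actin gap, measured with the array's beta-actin control probe sets as the 3′ score less the 5′ score, which widens when less of the RNA is full length. In 5 arrays the gap exceeded 1.4 (Control 02, Control 06, M500 04, M2000 05 and P2500 05), and their member means were 1.12 to 1.501, against 1.27 to 1.72 in the other 26. Below that limit, P500 02, 03 and 04 had gaps of 1.10, 1.27 and 1.33, and P2500 02 one of 1.15. T500 and T1800 held no array with a large gap (0.704 to 0.928). The part of RNA quality in the differences between groups was not tested beyond the fits with and without these arrays given below.

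**Figure D3:**
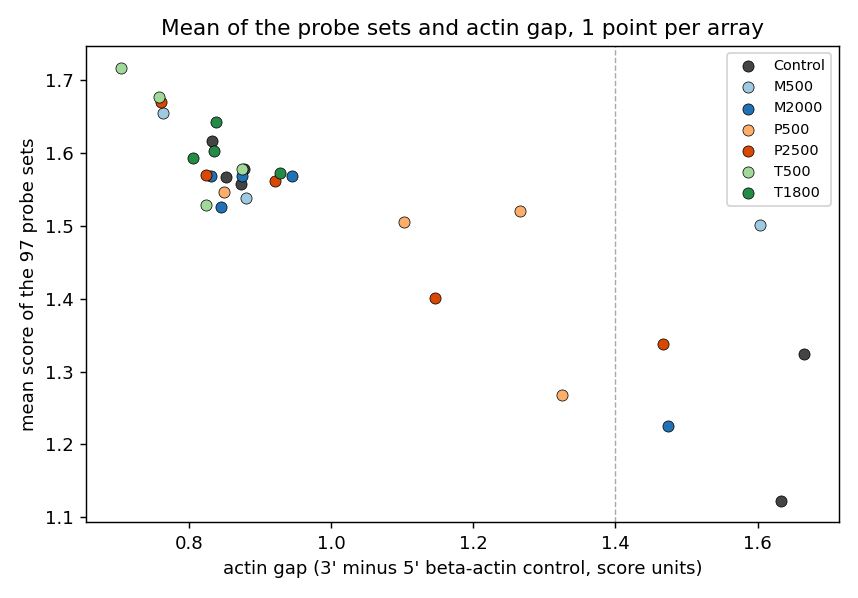
Mean score of the 97 probe sets (vertical) against the actin gap in score units (horizontal), with 1 point per array, coloured by group, and the limit of 1.4 dashed. The highest means, up to 1.72, lie at the smallest gaps, and the lowest, 1.12, belongs to Control 06 with a gap of 1.63.

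In Control, 68 of the 97 probe sets were lower in both large-gap arrays than in all 4 others, as were 25.5% of all probe sets, and 7 were higher in both (24.2% of all). In M2000, 73 were lowest in replicate 05 (36.8% of all) and 17 highest (33.7%). In P2500, 56 were lowest in replicate 05 (32.6% of all) and 12 highest (30.1%). In M500, 60 were lowest in replicate 04 (40.6% of all) and 25 highest (43.4%). The accessory subunits stood further down than the core subunits, with median differences of -0.541 and -0.135 in Control, -0.539 and -0.0516 in M2000 and -0.338 and -0.144 in P2500. In M500 they were nearly alike, at -0.168 and -0.129. Atp5mg, a small membrane subunit of the ATP synthase, spread most within groups (SD 0.499). It scored 0.98 and 1.09 in Control 02 and 06, against 2.38, 2.39, 2.41 and 2.53 in the other Control arrays. Cox5b, an accessory subunit of complex IV, had the next largest SD of 0.443, with 2.04 and 1.70 in the same pair of arrays and 2.81 to 3.10 in the others.

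Not every member moved that way. Cox5a, the accessory subunit 5A of complex IV, the complex I assembly factor Ndufaf4 and a dim probe set of the ATP synthase inhibitor Atp5if1 (1371229_at) were higher in the large-gap arrays in all 4 groups that hold them. Cox5a scored 1.67 and 0.88 in Control 02 and 06 and 0.33, 0.35, 0.36 and 0.37 in the other Control arrays. It was 1.37 in M500 04, 0.92 in M2000 05 and 1.30 in P2500 05, above 0.21 to 0.57 in the other arrays of those groups. In contrast, 43 members were lower in those arrays in all 4 groups (12.3% of all probe sets were lower, and 13.6% higher, in all 4), of which 32 were accessory and 10 core subunits. Atp5f1b stood between, at 3.11 to 3.20 across all 6 Control arrays.

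The spread this leaves within groups sets what a contrast can show. The median SD within groups was 0.180 for the members, 0.111 for the 22 core and 0.229 for the 62 accessory probe sets, against 0.117 for all probe sets at or above the 90th percentile. Besides Atp5mg and Cox5b, the widest were Atp5mf (0.397), Cox5a (0.378) and Cox6c (0.369). The narrowest were the muscle form Cox6a2 (0.0284), the assembly factor Ndufaf5 (0.0406) and dim second probe sets of Atp5po, Ndufa9 and Atp5me.

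No member passed an adjusted p of 0.05 (limma, Benjamini-Hochberg over 31042 probe sets) in any of the 9 contrasts. Among all probe sets, the share called was 0% in each contrast except T1800 against Control, where it was 0.00644% (2 probe sets). At an unadjusted p under 0.05, 8 members were higher and 1 lower in M500 than in Control (4.85% and 4.15% of all probe sets were), 0 and 0 in M2000 (0.934% and 0.767%), 3 and 1 in P500 (2.07% and 1.28%), 0 and 2 in P2500 (2.41% and 1.74%), 22 and 1 in T500 (4.04% and 3.58%) and 8 and 0 in T1800 (3.5% and 2.35%). As shares of the 97 members, the 22 of T500 are 22.7% and the 8 of M500 or T1800 are 8.25%.

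By direction alone, most members stood above Control in 5 of the 6 exposed groups. The differences were above 0 for 84 members in M500 (50.1% of all probe sets), 77 in M2000 (49.9%), 76 in P2500 (45%), 83 in T500 (48.9%) and 82 in T1800 (47.1%), and for 46 in P500 (51%). The 6 contrasts share the same Control arrays. The median difference of the members was 0.211 in T500, 0.155 in T1800, 0.121 in M500, 0.0488 in P2500, 0.0290 in M2000 and -0.00414 in P500, where the median of all probe sets lay between -0.00358 and 0.000708.

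On the scores as deposited the medians were 0.186 in T500, 0.0725 in T1800 and 0.354 in M500. Those of M2000 and P2500 turned to -0.0685 and -0.00959, so the direction in these last 2 groups differed between the scales. The deposited scores spread widest on Control 02 and M500 04 (SD 0.934 and 0.972 over probe sets, against 0.638 to 0.789 on the other arrays). The part of these arrays in the deposited medians was not tested. Among the 3104 probe sets at or above the 90th Control percentile, the median in T500 was -0.0261. These were chosen by their Control mean, which by itself pulls a difference from Control downward. Their median is therefore no neutral background for the members.

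The normalized medians of the members were lower when the 5 large-gap arrays were left out, 2 of which are Control arrays. They became 0.0505 in T500, 0.0294 in T1800, 0.0190 in M500, -0.0304 in P2500, -0.0232 in M2000 and -0.128 in P500. Leaving out Control 06 alone gave 0.113 in T500, 0.0820 in T1800 and 0.0385 in M500, and turned P2500 and M2000 to -0.0184 and -0.0341. Leaving out P500 04 alone gave 0.0595 in P500. When P500 04 and the 5 large-gap arrays were all left out, a choice made after seeing the data, the P500 median was -0.0609. Without only the 5 large-gap arrays, the members of T500 higher at an unadjusted p under 0.05 went from 22 to 7. In either direction 8.25% of the members then passed that p, against 7.68% of all probe sets, a share near the background. In P500, where this fit kept the low array P500 04, those lower went from 1 to 34. There 40.2% of the members passed in either direction, against 20.6% of all probe sets. With the actin gap as a covariate instead, the medians were 0.0443 in T500, 0.0375 in T1800, 0.0963 in M500, 0.00946 in P2500, -0.0227 in M2000 and 0.00189 in P500.

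**Figure D4:**
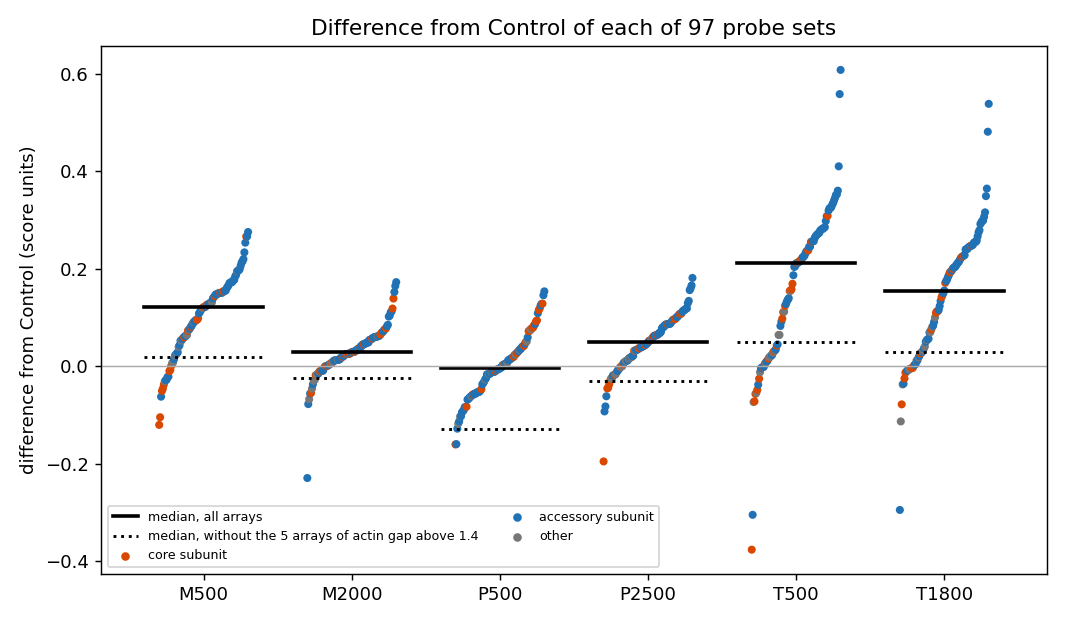
Difference from Control in score units of each of the 97 probe sets, sorted within each exposed group and coloured by role, with the median over all arrays (solid line) and the median after leaving out the 5 large-gap arrays (dotted line). The median of T500 drops from 0.211 to 0.0505 and that of P500 from -0.00414 to -0.128. When P500 04 was left out as well, the P500 median was -0.0609.

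In T500 the 22 members higher at an unadjusted p under 0.05 (4.04% of all probe sets were) came from complexes I, II, IV and V. They were 13 of the 44 probe sets of complex I, 3 of 5 in complex II, 3 of 17 in complex IV, 3 of 20 in complex V and 0 of 8 in complex III. Cyc1 of complex III, named further below, is outside the rule. Without the 5 large-gap arrays the count was 7 in place of 22, and the share was near the background, as given above. Atp5mg and Cox5b, the members of widest spread, had the largest differences in T500 (0.608 and 0.558) and in T1800 (0.538 and 0.481). Their T500 scores of 2.33 to 2.82 and 3.02 to 3.22 overlapped those of the 4 Control arrays of small gap.

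Among the higher members, those of smallest p in T500 and T1800 were the same for 2 genes. Sdhc, a membrane anchor of complex II, scored 1.14, 1.18, 1.26 and 1.27 in T500 and 1.23, 1.15, 1.25 and 1.17 in T1800, against a lowest of 0.93, a median of 1.11 and a highest of 1.16 in Control. Its differences were 0.124 (SE 0.0396, limma adjusted p = 0.539) and 0.113 (SE 0.0396, adjusted p = 0.767), with 4 of 4 arrays above the Control mean in each group. The groups overlapped in both. Ndufa8, an accessory subunit of complex I, scored 1.88, 1.85, 1.98 and 2.00 in T500 and 1.87, 1.86, 1.87 and 1.95 in T1800, against 1.48 and 1.23 in Control 02 and 06 and 1.79 to 1.86 in the other Control arrays. Its differences were 0.257 (SE 0.0977, adjusted p = 0.584) and 0.222 (SE 0.0977, adjusted p = 0.767). Of the 4 T1800 arrays none overlapped Control in Ndufa8. In T500 the next was Atp5f1c, the gamma subunit of the ATP synthase rotor, with 0.0976 (adjusted p = 0.602). In T1800 the muscle form Cox6a2 stood between them, with a difference of 0.0503 (adjusted p = 0.767) between groups that did not overlap but all lay below the bioB control.

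On the lower side, COX1, described further below, had the smallest p in T500. Cox5a had a difference of -0.305 in T500 and -0.295 in T1800 (adjusted p = 0.727 and 0.770), but its Control mean of 0.661 rests on the 2 large-gap arrays. Without those arrays the differences were 0.00102 and 0.0110. Ndufs1, an iron-sulphur core subunit of complex I, had means of 1.71 in T500 and 1.78 in Control, a difference of -0.0721 (adjusted p = 0.762) that was 0.00551 without those arrays.

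In M500 the smallest p belonged to Ndufaf5, an assembly factor that modifies a core subunit of complex I. It scored 0.75, 0.81 and 0.88 in the 3 M500 arrays and at most 0.73 in Control (lowest 0.59, median 0.71), so the groups did not overlap. The difference was 0.131 (SE 0.0294, 95% interval 0.0708 to 0.192, limma adjusted p = 0.106). The highest of the 3 values came from M500 04, an array of large actin gap, and the difference without it was 0.0974.

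The next were accessory subunits of complex I. Ndufb5 scored 2.13, 2.15 and 2.32 in M500 against 1.90 to 2.04 in Control, without overlap, and its difference was 0.215 (SE 0.0715, adjusted p = 0.318). Ndufs4 scored 1.16, 1.05 and 1.56 against 0.82 to 1.39, with a difference of 0.275 (SE 0.0942, adjusted p = 0.332). Both genes were highest in M500 04. Below Control, the dim probe set 1397920_at of Atp5po stood at -0.0624 (adjusted p = 0.357) and Atp5f1b at -0.105 (adjusted p = 0.575), where M500 04 had 2.87 and the other arrays 3.20 and 3.03. Ndufs1 had a difference of -0.120 (adjusted p = 0.648). On the scores as deposited, where M500 04 had the widest spread of all arrays, the differences of Atp5f1b and Ndufs1 changed sign, to 0.478 and 0.0728.

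The myclobutanil and propiconazole groups M2000, P500 and P2500 gave no member with an adjusted p under 0.714. In M2000 the smallest p were those of Ndufv3 1368567_at (-0.0776), Atp5po 1397920_at (-0.0370) and Atp5pb (0.110), the peripheral stalk subunit b, all with an adjusted p of 1. Atp5pb was also among the higher members in P500 (0.146, adjusted p = 1) and in P2500 (0.117, adjusted p = 1), contrasts that share the Control array 02 in which it was lowest, at 2.18. On the deposited scores its difference was -0.104 in M2000 and -0.0191 in P2500. In P500 the others were Ndufaf7 1393274_at (0.0759) and Atp5f1c (0.0845). In P2500 they were Sdhd (0.0862) and Cox7b (0.166), with Ndufv3 1368567_at at -0.0926. Of the P2500 arrays, replicates 02, 03 and 04 also carried liver transcripts, with 11 measured liver markers at an array mean of 1.60 to 1.66 against -0.129 to 0.281 on the other 28 arrays. The member means of those 3 arrays were 1.401, 1.57 and 1.56. Without them, which leaves 2 arrays, the differences were 0.0547 for Sdhd, 0.0467 for Atp5pb and 0.0526 for Cox7b, and the median of the members was 0.0360.

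COX1, the one gene here read from mitochondrial DNA, was the member with the lowest p in P2500 and T500 and the one with the lowest p among the lower members of P500. Its quantile-normalized score was 4.31, 3.97, 3.98 and 3.85 in T500 and 4.30, 4.13, 4.26, 4.16 and 4.19 in P2500, below the lowest Control value of 4.37 in every array. The differences were -0.376 in T500 (SE 0.0773, limma adjusted p = 0.471) and -0.195 in P2500 (SE 0.0725, adjusted p = 0.714), the latter -0.160 without the arrays carrying liver transcripts. P500 scored 4.33, 3.93, 4.39 and 4.31, with a difference of -0.160 (adjusted p = 1) and overlap with Control. All 4 T1800 arrays scored 4.39, a difference of -0.0114.

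Near the top of an array the normalized score is close to a restatement of the rank, so the ranks are given too. COX1 ranked 3 to 5 from the top in Control, 8, 25, 25 and 31 in T500, 9 to 17 in P2500, 5, 7, 8 and 27 in P500, and 5 in every T1800 array. M2000 01 ranked 20 while the other M2000 arrays ranked 3 or 5. Its deposited score was nonetheless the highest of M2000 (4.58 against 3.73 to 3.87). On the scores as deposited the T500 difference was -0.604 (SE 0.545, limma adjusted p = 0.940), and the groups overlapped. Control 02 and M500 04 then scored 7.38 and 7.41 where the other arrays scored 3.53 to 5.39.

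**Figure D5:**
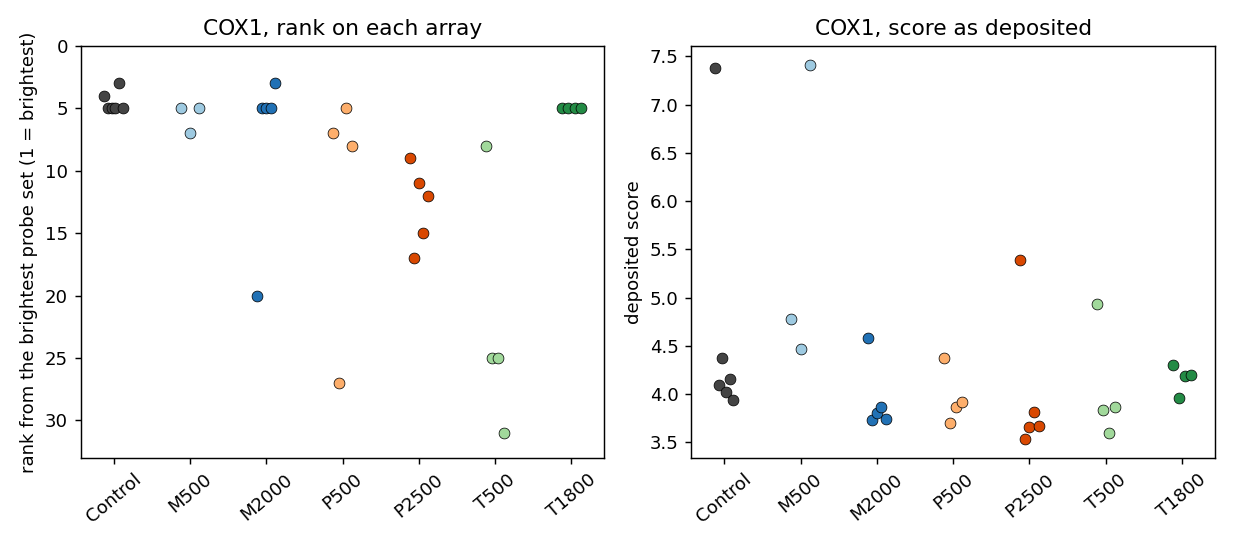
COX1 on each array by group, as its rank from the brightest probe set (left, rank 1 at the top) and as the deposited score (right), with 1 point per array. All T500 and P2500 arrays rank below the Control arrays, whose ranks are 3 to 5, while the deposited scores overlap and Control 02 and M500 04 stand near 7.4.

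The 3 compounds were compared with each other at the shared dose of 500 ppm. Myclobutanil carries a nitrile, propiconazole a dioxolane and triadimefon a ketone beside the triazole ring they have in common. For these 3 pairs no member passed an adjusted p of 0.05 (0% of all probe sets did). At an unadjusted p under 0.05, 8 members were higher and 1 lower in M500 than in P500 (3.62% and 3.86% of all probe sets), 3 and 1 in M500 than in T500 (3.49% and 3.21%), and 3 and 7 in P500 than in T500 (3% and 2.07%). The median difference was 0.110 for M500 minus P500 (79 of 97 above 0, 49.7% of all probe sets), -0.0682 for M500 minus T500 (26 above 0, 51.2%), which turned to 0.176 on the deposited scores and to 0.0526 with the actin gap as covariate, and -0.204 for P500 minus T500 (16 above 0, 51.7%). These pairs share groups and are not independent of each other.

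Ndufc2, an accessory subunit of complex I, had the smallest p both between M500 and P500 and, on the lower side, between P500 and T500. It scored 1.01, 0.98, 1.03 and 0.81 in P500, 1.09, 1.24 and 1.42 in M500 and 1.08, 1.11, 1.26 and 1.22 in T500, so that P500 overlapped neither. The difference was 0.290 between M500 and P500 (95% interval 0.125 to 0.454, limma adjusted p = 0.365) and -0.211 between P500 and T500 (95% interval -0.364 to -0.0591, adjusted p = 0.888). Atp5f1b had means of 3.03 in M500 and 3.22 in P500, a difference of -0.184 (95% interval -0.302 to -0.0653, adjusted p = 0.469) that turned to 0.660 on the deposited scores. COX1 was 0.326 higher in M500 than in T500 on the rank-bound scale (95% interval 0.138 to 0.513, adjusted p = 0.688). For P500 minus T500 its difference was 0.216 (95% interval 0.0418 to 0.390, adjusted p = 0.888), and -0.0945 on the deposited scores.

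Between P500 and T500 the calls depended on which arrays were in the fit. The actin gap also differed between these groups, at 1.10, 1.27 and 1.33 in P500 02, 03 and 04 against 0.704 to 0.875 in T500. With the gap as covariate the median difference was -0.0261 in place of -0.204. With the 5 large-gap arrays left out, none of which belongs to these groups, 11 members were called lower in P500 than in T500, which is 11.3% of the members, among 676 probe sets called in all (2.18%). They were Atp5mc3, Ndufv3, Atp5po, Atp5f1d, Cox6a1, Cox6b1, Ndufb9, Ndufc2, Ndufb8, Uqcrc2 1382280_at and Ndufb10, with differences from -0.121 for Atp5mc3 to -0.350 for Cox6b1 and adjusted p from 0.0228 to 0.0495. With P500 04 left out as well, a choice made after seeing the data, 0 of them were called, the lowest adjusted p of any member was 0.099 and the median difference was -0.119. At the high doses, which differ, the median differences from Control stood side by side at 0.0290 in M2000, 0.0488 in P2500 and 0.155 in T1800, and they were not compared.

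Other genes of mitochondrial energy metabolism were taken from 3 lists. Of the tricarboxylic acid cycle and pyruvate dehydrogenase list 16 of 20 genes were measured, of the assembly and biogenesis list 29 of 30, and of the carriers and transporters list 17 of 19. None of these genes passed an adjusted p of 0.05 in any of the 6 contrasts with Control. The mean of the tricarboxylic acid cycle genes was 1.13 ± 0.0132 (SD, n = 6) in Control, with 1.11 and 1.13 in Control 02 and 06. The mean of the respiratory chain members was 1.46 ± 0.195 (SD, n = 6) in Control, with 1.32 and 1.12 in Control 02 and 06.

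The genes named next were chosen after their values were seen. At an unadjusted p under 0.05, 6 of the 17 carrier and transporter genes were higher and 0 lower in T1800 (3.5% and 2.35% of all probe sets), and 4 were higher in T500 (4.04%). Those of T500 included the ADP/ATP carriers Slc25a4 (0.149) and Slc25a5 (0.140), cytochrome c1 of complex III (Cyc1, 0.0720) and the electron transfer flavoprotein Etfb (0.101). Slc25a31, the carrier form of germ cells, stood 0.229 above Control in T500 (unadjusted p = 0.105). In M500 4 of the 29 assembly and biogenesis genes were higher (4.85% of all probe sets), the mitochondrial transcription factors Tfb1m (0.135) and Tfam (0.0974) and the complex IV assembly factors Surf1 (0.125) and Cox18 (0.0640). In P500 3 of the 29 were higher (2.07% of all probe sets), among them Tfam (0.0996) and Tfb1m (0.0806), and so were 4 of the 16 tricarboxylic acid cycle genes. The germ cell form of pyruvate dehydrogenase, Pdha2, was 0.187 above Control in P500, 0.183 in T500 and 0.215 in T1800 (unadjusted p = 0.0378, 0.0418 and 0.0179).

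The labelled tissue was checked on the same arrays. The mean of 11 measured spermatid markers lay between 3.63 and 3.91 on every array. It was lowest on Control 02 (3.63), Control 06 (3.71), M2000 05 (3.74), P2500 05 (3.76) and M500 04 (3.76), the 5 arrays of large actin gap. Markers of other cell types differed between the groups too. The mean of the 2 erythrocyte markers measured of 6 was 1.15 to 1.42 on the 8 triadimefon arrays, above the 0.551 to 1.06 of Control. Macrophage markers (10 of 10 measured) had group means of 0.689 in T1800 and 0.640 in T500 against 0.591 in Control, and 5 of 10 were higher in T1800 at an unadjusted p under 0.05 (3.5% of all probe sets). Leydig cell markers (7 of 7 measured) had a mean of 0.909 in Control, 1.06 in T500 and 1.06 in T1800. It was 1.11 in P2500, 1.04 in M500, 0.966 in M2000 and 0.902 in P500. At the same unadjusted p, 2 of 7 were higher in T500 (4.04% of all probe sets), 3 in T1800 (3.5%), 3 in P2500 (2.41%) and 0 in M500 (4.85%). None of these markers passed an adjusted p of 0.05, and their part in the differences of the members was not tested. In bulk tissue a change in the number of germ cells cannot be told apart from a change in RNA per cell.

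Some promoter features, which the rule did not use, were more frequent among the members than among all promoters. For 78 of the 87 genes RefSeq (build GRCr8) gave a window from 250 bases before to 50 after a start, which was searched on both strands. NRF1, a regulator of nuclear genes for mitochondrial proteins, is known to bind the letters GCGCANGCG, which 19 of the 78 windows held (24.4%), against 5.8% of all 33469 windows of the table. The ETS motif CCGGAAG, bound by the factor GABP, was in 22 (28.2% against 8.75%). The CRE TGACGTCA was in 3, in Sdhb, Cox8a and Ndufb2 (3.85% against 1.83%), and the short CRE TGACG, which the full CRE contains, was in 35 (44.9% against 21.2%). The TATA box TATAAA was in 8 (10.3% against 14.2%). The windows had a median GC content of 56% against 51.67% and a median of 20 CpG sites against 7. The 33469 windows belong to 27457 genes, so some genes have several, while the 78 member windows belong to 78 genes. The members were not set against other genes of similar expression, so these features may not be particular to them. The part of base composition in these shares was not tested. Atp5mg, Ndufa6 and Atp5me held both the NRF1 and the ETS letters.

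As examples of each motif close to a start, the 120 bases before it are shown for Cox5b, the accessory subunit of wide spread, and for Ndufaf5, the member of smallest p in M500. Capitals mark the matches: the ETS letters in Cox5b, and in Ndufaf5 the short CRE and the NRF1 letters, which match on both strands and overlap. The stretches are chr9:46417717-46417836 (plus strand) and chr3:147961492-147961611 (plus strand) of GRCr8. The Cox5b stretch ends after the annotated start of the gene at 46417735, since the promoter table places its start later.
Cox5b: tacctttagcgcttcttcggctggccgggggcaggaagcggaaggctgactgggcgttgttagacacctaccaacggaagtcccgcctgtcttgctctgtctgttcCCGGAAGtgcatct
Ndufaf5: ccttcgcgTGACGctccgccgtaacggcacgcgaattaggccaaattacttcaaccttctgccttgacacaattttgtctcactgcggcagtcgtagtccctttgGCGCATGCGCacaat
A match is a run of letters and does not show that a factor binds there.

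The member genes are spread over most autosomes and the X chromosome, with the most on chromosome 1 (16 genes), chromosome 7 (10 genes) and chromosome 3 (7 genes). Those on the X chromosome are Cox7b, Ndufb11 and Ndufa1. Their Control means were 0.440, 1.08 and 1.52, while Cox7b2, the germ cell form of the first, lies on chromosome 14.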

How the data were processed

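Testis RNA of 31 rats was measured on 1 array each, grouped by the labels. The authors deposited 1 score for each probe set, log-like and centred near 0 on each array. Their probe summary, normalization, log base and gain are not given in the sources used here. This table held 31099 probe sets, and 0 of its columns belonged to other samples. It was quantile normalized with limma 3.58.1 in R 4.3.3, 57 control probe sets were dropped, and 31042 were tested with 1 mean per group over all 31 arrays (lmFit, eBayes) in 9 contrasts. Adjusted p-values are Benjamini-Hochberg's over all 31042, with a threshold of 0.05. The germ cell minus general forms were compared by exact two-sided permutation tests. The fit was tested on simulated data. The number of arrays limits the precision.

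Gene symbols came from the platform annotation (20826 probe sets with 1 symbol, 436 with several, 9780 with none). Genes of each contrast were named by a rule: COX1 and the tissue forms always, the members past the threshold or else the 3 of smallest p in each direction (2 between compounds), the brightest and dimmest of each complex, and the 5 of largest and of smallest SD. Members, lists, roles and alternatives were chosen with earlier results of these data known.

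Replicate numbers are shared between groups. On the normalized scores, deviations of same-numbered arrays correlated at a mean of 0.0266 over 73 pairs (-0.768 to 0.775), and of others at 0.0165. Of 31 arrays, 7 correlated best with an array of their own number. Before normalization, replicate 01 had the highest array median in M2000 (0.0339), P500 (0.0202), P2500 (0.0558) and T500 (0.0290). In M500 it did not (0.0301, against 0.0557 in replicate 04). Whether arrays of the same number were processed together is not known. Alternatives were the deposited scores, array weights, the actin gap, animal number series, replicate number, a bioB filter and each array left out. Animal numbers fell into 2 series, split at 3000. Control 05, 06 and 07 and T1800 03, 04 and 05 were in the later series and all other arrays in the earlier one. What sets the series apart is not known.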

Additional observations from a re-analysis of the deposited data

Results flagged for a closer look

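Of 90 groups of 4 to 10 arrays that were checked, 15 held an array that stood apart from the rest of its group (16.7%), where chance gives about 1 in 20. Most came from 2 arrays and are not independent of each other.

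M2000 05, an array of large actin gap, stood below the other 4 in the mean over all members (1.22 against 1.53 to 1.57), Cox4i1 (2.72 against 3.16 to 3.27), Cox6a1 (1.30 against 1.77 to 1.85), Cox6b1 (0.477 against 1.01 to 1.12), Cox6b2 (2.14 against 3.10 to 3.20), Cox7b2 (2.92 against 3.44 to 3.60) and Cox8a (0.678 against 1.15 to 1.31). Its Cox6b2 minus Cox6b1 was 1.66 against 2.02 to 2.13.

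P500 04, with a gap of 1.33, stood below the other 3 in the mean over all members (1.27 against 1.505 to 1.55), Cox6b1 (0.515 against 0.961 to 1.02) and Cox7b2 (2.95 against 3.48 to 3.53). Its Cox7b2 minus Cox7b was 2.68 against 2.99 to 3.02.

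Of the remaining arrays, P2500 05 was low in Cox4i1 (2.70 against 3.18 to 3.23). On the normalized scores, which near the top restate the rank, COX1 was high in Control 06 (4.49 against 4.37 to 4.39) and low in M2000 01 (4.08 against 4.39 to 4.49). On the deposited scores M2000 01 was instead the highest of its group (4.58 against 3.73 to 3.87). Control 06, at 4.16, then lay within the range of the other Control arrays (3.94 to 7.38).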

How the results depend on the processing

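No member was called in any of the 9 contrasts, and this was so on the deposited scores, with only the compared groups, with the animal number series as a block or within it, and above the bioB filter. A single called member is 1.03% of the 97. With array weights 1 member was called in M500 (Ndufa9; 0.197% of all probe sets), 1 in T500 (COX1, -0.379, adjusted p = 0.0297; 0.142%) and 1 in T1800 (Ndufa9; 0.85%). With the actin gap as covariate it was 1 in M500 (Ndufaf5, adjusted p = 0.0376; 0.744%). Without the arrays of large actin gap it was 1 in M500 (Ndufa9; 0.058%), 11 for P500 minus T500 (2.18%) and 1 gene of the carriers list there. Leaving out single arrays gave 0 to 1 called members in M500 (Ndufaf5 without M500 01, 0.0974 to 0.163; 0.503% of all) and 0 to 1 in T500 (COX1 without T500 01, -0.471 to -0.318; 0.00322% of all).

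The median difference moved on the deposited scores, and with them scaled to one median absolute deviation, in M500 (0.354 and 0.410), M500 minus P500 (0.431 and 0.458) and M500 minus T500 (0.176 and 0.207). Each of these contrasts holds M500 04, the array of widest deposited spread (SD 0.972). In T500 it was 0.0605 with array weights, 0.0443 with the actin gap as covariate and 0.0505 without large-gap arrays, and for P500 minus T500 -0.0261 with the covariate. Array weights gave 0.00810 in M500 and turned M2000 (-0.00949) and P2500 (-0.0178), and M2000 was -0.00609 within the earlier animal numbers. The covariate turned M2000 to -0.0227, P500 to 0.00189 and M500 minus T500 to 0.0526. Leaving out single arrays turned the sign in M2000 (-0.0341 to 0.119), P2500 (-0.0184 to 0.112) and P500 (-0.0744 to 0.0595), and gave 0.0385 to 0.154 in M500, 0.113 to 0.247 in T500, 0.0820 to 0.195 in T1800, 0.0387 to 0.146 for M500 minus P500, -0.119 to -0.0288 for M500 minus T500 and -0.231 to -0.119 for P500 minus T500. With the replicate block 0 members were called in each contrast and the T500 median was 0.0824. The block turned the medians of M2000 (-0.0340) and P2500 (-0.0231), and Ndufs1 in T500 (0.000736).

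On the deposited and the scaled scores the sign reversed for Atp5f1b (0.478, 0.569) and Ndufs1 (0.0728, 0.122) in M500, Atp5pb (-0.104, -0.0981) and Ndufa9 (-0.108, -0.104) in M2000, Atp5f1c in P500 (-0.132, -0.0926), Atp5pb in P2500 (-0.0191, -0.0136), Atp5f1b in M500 minus P500 (0.660, 0.708) and COX1 in P500 minus T500 (-0.0945, -0.0812). It reversed for Cox6b2 minus Cox6b1 in T1800 (-0.110, -0.125) and for Cox7b2 minus Cox7b in M2000 (-0.253, -0.246) and T1800 (-0.152, -0.172). Array weights reversed Atp5f1b (0.00540) and Ndufs1 (0.0226) in M500 and Uqcrc2 1382280_at in M500 minus T500 (0.0200). The covariate reversed Cox5a in T500 (0.0769) and T1800 (0.0163).

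Without large-gap arrays the sign reversed for Ndufs1 in M500 (0.0234) and T500 (0.00551), Ndufs3 in M2000 (-0.0114), Cox5a in T500 (0.00102) and T1800 (0.0110), Uqcrc2 1382280_at in M500 minus T500 (0.0736), Cox6b2 minus Cox6b1 in M500 (-0.130) and T1800 (-0.0885), and Cox7b2 minus Cox7b in M500 (-0.0341), T500 (-0.0156) and T1800 (-0.0319). Leaving out single arrays reversed Uqcrc2 1382280_at in M500 minus T500 (-0.360 to 0.0736), Cox6b2 minus Cox6b1 in M500 (-0.0415 to 0.0339), M2000 (-0.0606 to 0.0651), P500 (-0.110 to 0.0350) and T1800 (-0.0274 to 0.0480), and Cox7b2 minus Cox7b in M500 (-0.0170 to 0.0527), M2000 (-0.00848 to 0.107), P500 (-0.0525 to 0.0740) and T1800 (-0.00269 to 0.0670).

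Apart from what leaving out arrays changes by construction, the causes were not tested. Other probe sets of the general forms were not run, since Cox6b1 and Cox7b have 1 each. The 3 to 6 arrays per group, the unknown gain of the scores, unknown litters and the unequal spread of large-gap arrays over the groups limit these comparisons. Only 81 of the 97 members exceeded the bioB control in at least 3 arrays.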
